A study of Mus musculus with 8 samples.

Results

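Microglia and macrophage genes were measured in cultures of mouse cortical astrocytes. The 10 genes, Adgre1, Ccl3, Cd53, Cd68, Cybb, Itgam, Lgmn, Ptpn6, Rac2 and Tyrobp, were chosen by symbol from the annotation of the array, which named 5822 genes in all. All 10 had a value on all 8 arrays, as did 2163 named genes, and no filter on low values removed any of the 10. The cultures came from neonatal C57BL/6j mice, either wild type (WT, 4 arrays) or null for connexin43 (Cx43 KO, 4 arrays), connexin43 being the main gap junction protein of astrocytes. The title of the third Cx43 KO array names the gene without the word KO. The labels give a lot batch for each array, numbered 1 to 4, and each lot batch holds 1 array of each genotype. They do not say whether the arrays came from separate cultures, pups or litters, so p-values reflect only how far these samples differ from each other, and that spread may be technical. They also name no step that removed microglia. The comparison of the genotypes asks which transcripts differ in astrocytes without connexin43. The transcript of connexin43 itself, Gja1, was not analysed here, so it gives no check of the genotype labels.

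Microglia are the resident macrophages of the brain. They come from yolk sac precursors rather than from the neural lineage that gives rise to astrocytes, and they are known to persist in cultures prepared as astrocytes. Their surface receptors signal through adaptors with tyrosine activation motifs, their phagocytic NADPH oxidase makes superoxide, and their lysosomes break down what they engulf. The transcription factor PU.1, which binds purine-rich DNA with a GGAA core, is known to drive many myeloid genes.

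Every level below is a log2 ratio of astrocyte RNA over a reference pool made from tissues of adult mice and shared by all arrays, with the median of each array set to 0. Base 2 is assumed, since the sources used here do not name the base. The pool held spleen, lung, liver and brain among its tissues. The sources also do not settle which channel is the numerator. The direction was taken as likely from markers: 5 astrocyte genes had a mean level between 0.26 and 1.68 on the 8 arrays, and 6 genes of adult tissues between -2.45 and -1.91. In the other direction every sign here would turn. A ratio was present for 36.6% to 57.6% of the 9568 features of an array. The number of arrays limits the precision, and no counts or intensities were used here. In bulk RNA, more cells of a type and more RNA per cell cannot be told apart, which holds for all levels below.

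The promoters of 4 of the genes are shown because Cd68, Cybb and Cd53 had the highest correlations with each other across arrays and Lgmn correlated negatively with them, as described below. The sequences are RefSeq windows from 250 bases before to 50 bases after an annotated start (build GRCm38.p6), written 5' to 3' in the direction of transcription. Capitals mark GAGGAA or GGAAGT on either strand (TTCCTC or ACTTCC on the other), purine-rich strings with the GGAA core that can overlap by sharing it. The start of the Cybb window lies inside the annotated span of the gene.
Cd68 (chr11:69666121-69666420, minus strand): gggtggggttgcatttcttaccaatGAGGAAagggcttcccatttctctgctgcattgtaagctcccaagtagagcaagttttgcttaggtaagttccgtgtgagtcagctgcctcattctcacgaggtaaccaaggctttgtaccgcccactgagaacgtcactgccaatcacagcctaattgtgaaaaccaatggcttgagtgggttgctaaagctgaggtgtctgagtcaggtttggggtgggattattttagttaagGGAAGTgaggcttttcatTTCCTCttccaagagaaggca
Cybb (chrX:9469275-9469574, minus strand): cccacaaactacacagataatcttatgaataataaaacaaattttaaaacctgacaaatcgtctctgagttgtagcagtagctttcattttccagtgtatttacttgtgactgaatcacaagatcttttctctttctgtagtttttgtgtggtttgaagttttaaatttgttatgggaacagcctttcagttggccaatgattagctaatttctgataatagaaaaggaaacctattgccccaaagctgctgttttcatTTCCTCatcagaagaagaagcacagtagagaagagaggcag
Cd53 (chr3:106790100-106790399, minus strand): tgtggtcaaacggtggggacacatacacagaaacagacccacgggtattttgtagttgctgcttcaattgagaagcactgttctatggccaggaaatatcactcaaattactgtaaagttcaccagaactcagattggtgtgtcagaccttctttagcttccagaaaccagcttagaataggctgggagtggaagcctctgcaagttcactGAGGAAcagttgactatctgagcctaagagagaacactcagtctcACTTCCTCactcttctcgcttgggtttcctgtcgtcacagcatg
Lgmn (chr12:102439679-102439978, minus strand): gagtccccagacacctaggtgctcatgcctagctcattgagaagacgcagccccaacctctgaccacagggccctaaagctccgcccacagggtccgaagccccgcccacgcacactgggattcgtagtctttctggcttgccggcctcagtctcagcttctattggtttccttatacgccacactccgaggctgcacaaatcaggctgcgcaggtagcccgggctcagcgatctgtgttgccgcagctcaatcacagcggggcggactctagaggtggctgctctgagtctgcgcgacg
Both Lgmn windows in the RefSeq table lacked the 2 strings, and the one printed belongs to the start farther upstream. Of the 10 genes, 7 were in that table, with 8 windows. GAGGAA lay in a window of 5 of the 7 genes (Ccl3, Cd53, Cd68, Cybb and Itgam), against 28.3% of all 32851 promoter windows of the same length. GGAAGT lay in a window of 4 of the 7 (Ccl3, Cd53, Cd68 and Ptpn6), against 23.8% of all windows. A match describes letters in a window and not a bound site, and the absence of one says only that these letters are not in it.

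The surface proteins of the set were highest on the array Cx43 KO 4 and lowest on Cx43 KO 1. Adgre1, an adhesion G protein-coupled receptor used as a marker of macrophages, had levels of 1.18, 2.25, 2.35 and 2.12 on the arrays WT 1 to 4, against -0.046, 0.57, 2.63 and 4.91 on Cx43 KO 1 to 4. The 4 WT arrays thus lay inside the range of the Cx43 KO arrays. The level on Cx43 KO 4 corresponds to 30.1 times the pool, and to 14.6 times the mean of the other Cx43 KO arrays. Itgam, the alpha chain CD11b of complement receptor 3, had levels of 0.10, 0.92, 1.54 and 0.66 in WT and of -0.51, 0.039, 0.89 and 2.46 in Cx43 KO. Its partner chain Itgb2 was listed at 0 on all arrays, that is, without a ratio. Cd53, a tetraspanin of leukocytes, had levels of 0.40, 0.97, 0.96 and -0.63 in WT and of -1.10, -0.63, 0.21 and 1.61 in Cx43 KO. WT 4 and Cx43 KO 2 were level for this gene, and the groups overlapped. Cd53 was the mean of 3 features, which correlated at r = 0.97 to 1.00 with each other across 7 or 8 arrays but differed in level by up to 0.84 on average. One of them had no ratio on Cx43 KO 2.

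The genes of receptor signalling differed in how far Cx43 KO 4 stood out. Tyrobp encodes DAP12, the adaptor through which TREM2 and related receptors of microglia signal. Its levels were 0.44, 1.29, 1.24 and 0.22 in WT and -0.56, -0.32, 0.44 and 1.06 in Cx43 KO, so that WT 2 and WT 3 lay above Cx43 KO 4. Ptpn6 encodes SHP-1, a phosphatase that dampens signals of immune receptors. Its levels were -0.74, 0.44, -0.25 and -0.29 in WT and -1.21, -0.75, 0.24 and 1.72 in Cx43 KO. It was the member with the lowest mean over the 8 arrays, -0.11, and the only one whose mean lay below the pool. The other 9 of 10 had a mean above it, as did 52.7% of named genes with 8 values.

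Both members tied to the phagocytic NADPH oxidase were highest on Cx43 KO 4, but elsewhere they had different patterns. Cybb, the catalytic subunit gp91phox, had levels of 1.37, 2.04, 1.94 and 0.78 in WT and of -0.33, 0.14, 1.35 and 3.43 in Cx43 KO. It was the mean of 2 features, which correlated at r = 0.98 over 8 arrays. Rac2, the Rac GTPase of blood cells that activates the oxidase, had levels of -0.34, 0.22, 0.25 and -0.15 in WT and of 0.15, 0.27, 0.66 and 3.04 in Cx43 KO. Cx43 KO 4 lay 2.38 above the next array for Rac2, while the other 7 arrays spanned no more than the interval from -0.34 to 0.66. That 1 array held 80.8% of the sum of squares of Rac2 around its mean.

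The lysosomal members went in different directions. Cd68, the macrophage lysosomal membrane glycoprotein macrosialin, had the highest mean level of the set, 2.31 over the 8 arrays. Its levels were 2.44, 2.99, 2.84 and 2.03 in WT and 0.81, 1.43, 2.16 and 3.78 in Cx43 KO, above the pool on every array. Lgmn encodes legumain, an asparaginyl endopeptidase of lysosomes that is not limited to macrophages. Its levels were 0.71, 0.74, 0.51 and 0.85 in WT and 1.58, 0.81, 1.59 and 0.68 in Cx43 KO. Lgmn was high on Cx43 KO 1 and 3, and on Cx43 KO 4 it lay below 3 of the WT arrays.

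Ccl3, the chemokine MIP-1 alpha that activated myeloid cells secrete, had levels of -0.14, -0.029, 0.41 and 0.18 in WT and of -0.90, -0.65, 0.086 and 3.03 in Cx43 KO. Cx43 KO 4 lay 2.61 above the next array and held 76.2% of the sum of squares. Without it, Ccl3 spanned -0.90 to 0.41.

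**Figure D1:**
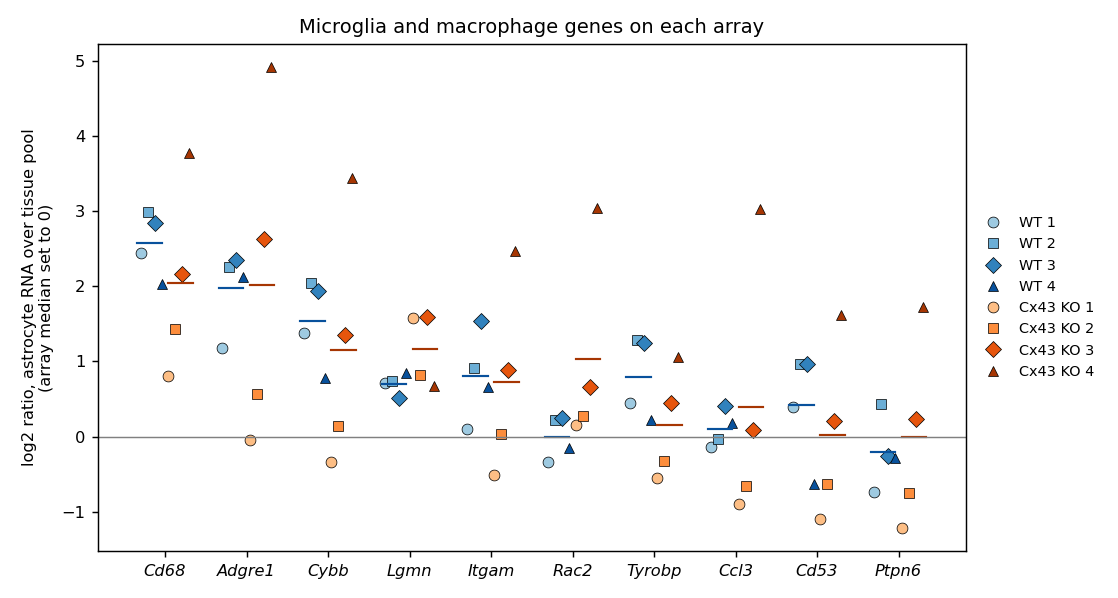
Log2 ratio over the tissue pool (vertical axis, each array's median set to 0) of the 10 genes, ordered by mean level; blue points are the 4 WT arrays, orange to brown points the 4 Cx43 KO arrays, and short lines the group means. The brown triangle, Cx43 KO 4, is the highest point for 8 genes and not for Lgmn and Tyrobp.

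Over the set, Cx43 KO 4 was the highest array for 8 of 10 genes, all but Lgmn and Tyrobp, and Cx43 KO 1 was the lowest for 8 of 10, all but Lgmn and Rac2. Of the 2163 named genes with 8 values, 20.5% were highest on Cx43 KO 4 and 8.23% lowest on Cx43 KO 1. A further 22.8% were lowest on Cx43 KO 4, so that this array had the largest share of any array in both directions. For 5 genes, Adgre1, Ccl3, Cybb, Ptpn6 and Rac2, Cx43 KO 4 lay at least 1 above every other array, against 1.94% of all named genes. Cx43 KO 1 and 2 both lay below every WT array for 7 genes, all but Cd53, Lgmn and Rac2, against 11.2% of all. The median range of a gene over the 8 arrays was 2.97 for the 10 genes and 0.91 for all named genes. The spread was on the Cx43 KO side: the SD was larger in Cx43 KO than in WT for 10 of 10 genes, against 58.4% of all, with a median SD of 1.30 in Cx43 KO and 0.51 in WT. The number of the 10 genes above the pool was 7 to 9 on the WT arrays, 3, 6 and 10 on Cx43 KO 1 to 3 and 10 on Cx43 KO 4. Their mean level per array was 0.54, 1.18, 1.18 and 0.58 in WT and -0.21, 0.091, 1.02 and 2.57 in Cx43 KO, so that both genotypes had a mean of 0.87, with an SD of 0.36 in WT and 1.25 in Cx43 KO (n = 4 each).

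The genes varied together across arrays, with Lgmn and Rac2 as exceptions. Pearson's r was computed for all 45 pairs over 8 arrays, with two-sided exact permutation tests over pairings adjusted over the 45 pairs. The median r was 0.83, and 29 pairs passed at an adjusted p of 0.05, or 18 with Spearman's rho. Of those 29, 26 were among the 8 genes other than Lgmn and Rac2 and 3 paired Rac2 with another of the genes, a split made after the values were seen. All arrays share the reference pool and the centring. The genes were chosen with earlier results of these data known, so the number of pairs that passed describes these genes only. No share of passing pairs over all named genes was computed. Cx43 KO 4 was the highest array for 20.5% and the lowest for 22.8% of named genes with 8 values, so whether 29 of 45 is particular to these genes was not tested. The permutations also treated the 8 arrays as exchangeable across genotypes and lot batches.

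The closest pair was Cd68 and Cybb, with r = 0.99 and rho = 1.00 (exact permutation p = 2.5e-05 for r, the smallest that 8 arrays allow, adjusted p = 0.0011). Their r was 0.99 without Cx43 KO 4 and 0.98 without the 2 arrays farthest from the median. Cd53 followed both, at r = 0.97 with Cybb (rho = 0.98, exact permutation adjusted p = 0.0017 for r and 0.0060 for rho) and 0.96 without the 2 farthest arrays. Tyrobp was closer to these genes without Cx43 KO 4 than with it, at r = 0.98 against 0.89 with Cybb and 0.97 against 0.92 with Cd68. Adgre1, Itgam, Ptpn6 and Ccl3 also went together: Adgre1 and Itgam had r = 0.96 (rho = 0.93, exact permutation adjusted p = 0.0026 for r and 0.013 for rho), and 0.84 without the 2 farthest arrays. Among the 28 pairs of these 8 genes, r was 0.60 to 0.99 over 8 arrays and 0.69 to 0.99 without Cx43 KO 4. Without the 2 arrays farthest from the median it was 0.47 to 0.98, so the lower of these values rest in part on those arrays.

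How closely Rac2 followed the others depended on Cx43 KO 4. Its r with the 8 genes other than Lgmn had a median of 0.73 over 8 arrays and of 0.10 without Cx43 KO 4. With the genotype means removed and all 8 arrays kept, the median was 0.93. With Ccl3, its r was 0.90 over 8 arrays (rho = 0.43, exact permutation adjusted p = 0.088 for r and 0.345 for rho) and 0.024 without Cx43 KO 4, so that this relation rests on that array. Lgmn had a negative r with each of the other 9 genes, from -0.63 with Cd68 (rho = -0.71, exact permutation adjusted p = 0.128 for r and 0.093 for rho) to -0.11 with Rac2. None of its 9 pairs passed, and without the 2 farthest arrays the r with Cd68 was -0.33. Without Cx43 KO 4 the r of Lgmn with Rac2 was 0.48, and the other 8 stayed below 0.

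**Figure D2:**
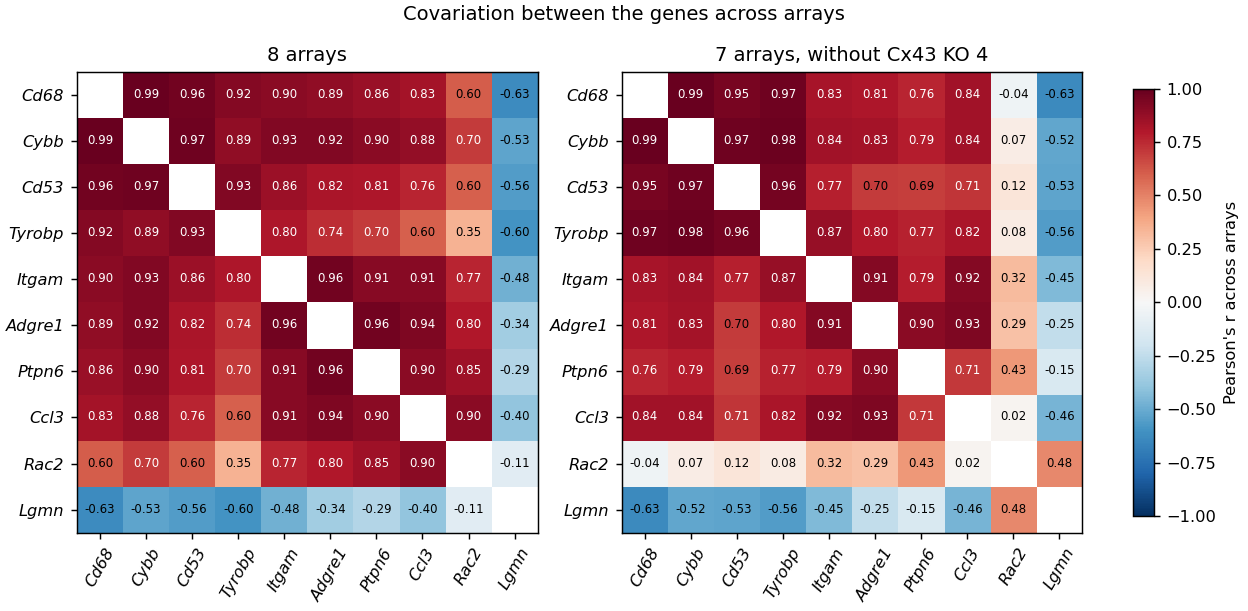
Pearson's r between each pair of the 10 genes across 8 arrays (left) and across 7 arrays without Cx43 KO 4 (right), on a colour scale from -1 (blue) to 1 (red). Rac2 loses its red row on the right, from a median of 0.73 to 0.10 with the 8 genes other than Lgmn. Among Cd68, Cybb, Cd53 and Tyrobp, r is 0.89 to 0.99 on the left and 0.95 to 0.99 on the right.

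Between the genotypes, no member passed the test, and each difference was smaller in size than the SD over the Cx43 KO arrays, though close to it for Lgmn and Tyrobp (0.46 against 0.49 and -0.64 against 0.74). Of the 3505 genes and features that limma tested, 0% had an adjusted p of 0.05 or below, and 7.5% lay at an unadjusted p of 0.05 or below, among them 0 of the 10 genes. The Cx43 KO minus WT difference was positive for 5 of the 10 genes and negative for 5, against 47.6% negative among named genes with 8 values, with a median of -0.023 for the 10 and 0.017 for all tested. The groups overlapped for all 10, while 3.88% of named genes with 8 values had groups that did not. The mean level of Cd68 was 2.57 ± 0.43 in the WT arrays and 2.04 ± 1.28 in the Cx43 KO arrays (SD, n = 4 each). Its difference was -0.53 (SE 0.53, 95% interval -1.71 to 0.65, limma adjusted p = 0.835). Rac2 had the difference of largest size, 1.03 (SE 0.55, 95% interval -0.18 to 2.25, limma adjusted p = 0.696), with a mean of -0.0050 ± 0.28 for WT and 1.03 ± 1.36 for Cx43 KO (SD, n = 4 each). Tyrobp differed by -0.64 (SE 0.38, 95% interval -1.48 to 0.20, limma adjusted p = 0.753) and Lgmn by 0.46 (SE 0.24, 95% interval -0.069 to 1.00, limma adjusted p = 0.696). Adgre1, Ccl3, Cd53, Cybb, Itgam and Ptpn6 differed by 0.039, 0.28, -0.40, -0.38, -0.086 and 0.21, with SE between 0.55 and 0.89.

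The sign of the difference was not the same in each lot batch. Each holds 1 array of each genotype, so lot batch and single array cannot be told apart. For 8 of the 10 genes, all but Lgmn and Rac2, Cx43 KO was below WT in lot batches 1 and 2 and above it in lot batch 4, which holds Cx43 KO 4. The same held for 17.4% of named genes with 8 values. For these 8 genes the differences within lot batch 1 ran from -1.71 (Cybb) to -0.48 (Ptpn6), within lot batch 2 from -1.90 (Cybb) to -0.62 (Ccl3), within lot batch 3 from -0.80 (Tyrobp) to 0.49 (Ptpn6) and within lot batch 4 from 0.85 (Tyrobp) to 2.85 (Ccl3). Rac2 was higher in Cx43 KO in all lot batches, by 0.48, 0.050, 0.41 and 3.18. Lgmn differed by 0.87, 0.072, 1.08 and -0.17.

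Cx43 KO 4 was the highest Cx43 KO array for every member but Lgmn, so leaving it out could only lower their differences. What follows is the size of that shift, not separate evidence of a direction. The sign turned for 3 genes. Without it, Adgre1 differed by -0.93 in place of 0.039, Ccl3 by -0.60 in place of 0.28 and Ptpn6 by -0.37 in place of 0.21. Of all named genes with 8 values, 15.6% turned sign. The difference moved by at least 0.5 for 8 genes, all but Lgmn and Tyrobp, against 2.17% of all that moved by so much and 1.53% that fell by so much. Without this array 8 of the 10 genes, all but Lgmn and Rac2, were lower in Cx43 KO, against 46.8% of all. Cd68 then differed by -1.11 (SE 0.32), Cybb by -1.15 (SE 0.40), Tyrobp by -0.94 (SE 0.32), Cd53 by -0.93 (SE 0.41), Itgam by -0.67 (SE 0.37), Lgmn by 0.63 (SE 0.22) and Rac2 by 0.36 (SE 0.21).

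The values with limma on these 7 arrays are a description, since the array left out was the one with the highest levels of most of these genes, which lowers the differences beforehand. There, 6 of the 10 genes lay at an unadjusted p of 0.05 or below, 5 lower in Cx43 KO (Ccl3, Cd53, Cd68, Cybb and Tyrobp) and 1 higher (Lgmn). Of all 3143 genes and features tested there, 12.2% did so, 5.54% lower and 6.68% higher. None of the 10 passed over all genes tested, where 0.127% did. The smallest adjusted p were 0.244 for Cd68, 0.309 for Tyrobp and 0.314 for Cybb. The median difference over all 10 genes was then -0.80, against 0.024 for all tested. Leaving out any other single array kept the difference of Cd68 between -0.71 and -0.12 and that of Tyrobp between -0.83 and -0.40. That of Adgre1 ran from -0.23 to 0.73 over those 7 fits.

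Cx43 KO 4 also had the lowest weight when limma estimated array weights over all genes, 0.32, against 0.74 to 1.75 on the other arrays. Cx43 KO 1, the lowest array for 8 of the 10 genes, had a weight of 1.74. Such weights move the differences toward those without Cx43 KO 4, so these values too are a description and not separate evidence of a direction. The differences came close to those without the array, for example -1.15 for Cd68, -0.95 for Adgre1 and -1.08 for Tyrobp (limma adjusted p = 0.248, 0.527 and 0.212). Of the 10 genes, 5 lay at an unadjusted p of 0.05 or below, against 13.4% of all.

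**Figure D3:**
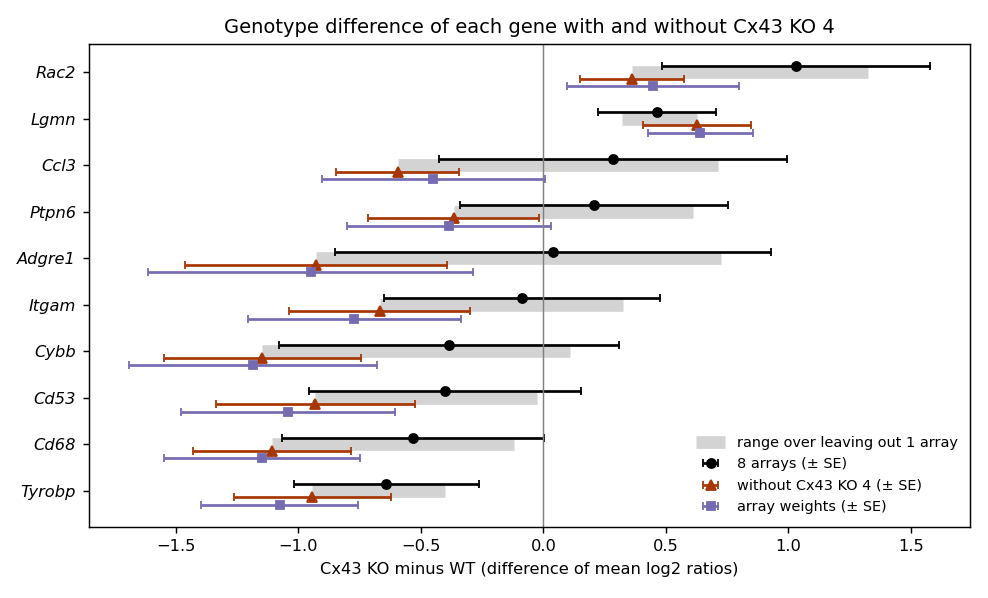
Cx43 KO minus WT difference of mean log2 ratios (horizontal axis) for the 10 genes with 8 arrays (black), without Cx43 KO 4 (brown triangles) and with array weights (purple), each with its SE, and grey bars for the range over leaving out each array in turn. Adgre1, Ccl3 and Ptpn6 lie above 0 with 8 arrays and below 0 without Cx43 KO 4.

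Among the other markers of microglia and macrophages that were tested, 8 of 11 were lowest on Cx43 KO 1. On Cx43 KO 4, 4 of the 11 were highest (Lgals3, Nckap1l, Ccl9 and Ccl6). For named genes with 8 values, these shares were 8.23% and 20.5%. Ly86, Fcgr3, Lgals3, Nckap1l and Ccl6, all lowest on Cx43 KO 1, had no ratio on Cx43 KO 2. Of the 6 markers with 8 values, Tmem119, Irf8 and Pf4 were lowest on Cx43 KO 1 and Ccl9 was highest on Cx43 KO 4. Of 74 further markers, 30 were on the array, 13 of them were listed at 0 on all arrays, among them the leukocyte genes Ptprc and Itgb2 and the microglial protease Ctss, and 11 were tested. With limma, 0 of the 11 passed, 3 were higher and 8 lower in Cx43 KO, and their median difference was -0.22. The mean of the 6 with 8 values was 0.27 to 0.70 in WT, -0.63, -0.078 and 0.32 on Cx43 KO 1 to 3 and 0.65 on Cx43 KO 4, inside the WT range. Ly86, a partner of the Toll-like receptor relative RP105, had 0.96 on Cx43 KO 4 and 1.23 to 2.25 in WT. Olfml3, a secreted glycoprotein enriched in microglia, ran otherwise, with 1.81, 1.56 and 2.43 on Cx43 KO 1 to 3, 1.03 to 1.12 in WT and its lowest level, 1.00, on Cx43 KO 4. The Fc receptor gene Fcgr3 had 1.67 on Cx43 KO 4, within the WT levels of 1.32 to 1.82 on 3 arrays, and the lectin Lgals3 had 1.64, above its WT levels of 0.98 to 1.27 on 3 arrays. The chemokines Ccl9 and Ccl6 were at 2.28 and 1.39 on Cx43 KO 4, and Nckap1l, a regulator of actin in blood cells, was at 2.39. The microglial membrane protein Tmem119 had 0.86 on Cx43 KO 4, 2.11 on Cx43 KO 3 and -0.65 on Cx43 KO 1. The folate receptor Folr2 was the one whose groups did not overlap, with -0.69, 0.066, -0.97 and -0.61 in Cx43 KO and 0.074 to 1.25 in WT. Its difference was -1.34 (SE 0.31, limma adjusted p = 0.449) and -1.31 without Cx43 KO 4. The remaining markers had too few ratios to test. With a ratio on 3 to 5 arrays, 4 of them were highest on Cx43 KO 4: the endotoxin co-receptor Cd14 at 3.54, the transcription factor Runx1 at 2.08, the costimulatory gene Cd86 at 0.11 and the tetraspanin Cd37 at -0.21. None of these 4 had a ratio on WT 2, Cx43 KO 1 or Cx43 KO 2, and no share over all genes was computed for such a pattern. C1qc and Itgax had no ratio on Cx43 KO 4, and C1qc had 1.63 on WT 4 and 1.26 on Cx43 KO 3. Nckap1l, Tmem119, Folr2, Pf4 and the markers with too few ratios to test are named after their values were seen.

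Markers of some other cell types also lay apart on Cx43 KO 4, while others did not. Their part in the levels of the 10 genes was not tested. Of 31 astrocyte markers 9 were on the array, Slc1a2 was listed at 0, and the 5 with 8 values had a mean of 0.26 on Cx43 KO 4 against 1.27 to 1.68 on the other arrays, with all 5 lowest there. Among all named genes with 8 values, 22.8% were lowest on that array. Of 39 fibroblast, meningeal and mural markers 19 were on the array, Sparc, Thbs2 and S100a6 were listed at 0, and the 9 with 8 values had a mean of 2.54 on Cx43 KO 4, 0.65 to 2.11 in WT and 0.056, 0.20 and 0.98 on Cx43 KO 1 to 3. The fibronectin gene Fn1, for example, had 4.10 on Cx43 KO 4, 0.96 and 0.67 on Cx43 KO 1 and 2 and 3.86 on WT 1. Of 23 neuron markers 8 were on the array, and the mean of the 3 with 8 values was -1.88 on Cx43 KO 4 and -1.10 to -0.17 elsewhere. Map2 and Uchl1 were lowest on Cx43 KO 4, at -2.54 and -1.08. Nefm was lowest on WT 1, and Rbfox3, with 7 values, was highest on Cx43 KO 4, at -1.13. Of 25 markers of T, B and red cells only Ms4a1 was tested, with levels of -2.81 to -1.03 and with -1.97 on Cx43 KO 4. Cd79a, Cd79b, Cd6 and Alas2 were listed at 0. Of 21 endothelial markers 10 were on the array and only Cdh5 was tested. It had 1.16 on WT 1, its highest level, -1.65 on Cx43 KO 3, its lowest, and -0.47 on Cx43 KO 4. Of 13 ependymal and choroid plexus markers 3 were on the array, Ttr was listed at 0, and the mean of the other two was 0.98 on Cx43 KO 4 and -1.72 to 0.33 elsewhere. Of 18 oligodendrocyte markers 5 were on the array, and the 1 with 8 values, Cnp, had -1.53 on Cx43 KO 4 and -0.42 to 0.18 elsewhere. Pdgfra, with 6 values, had 0.24 on Cx43 KO 4, -1.69 and -1.50 on Cx43 KO 1 and 3 and 0.049 to 1.96 in WT. Its difference was -2.27 (SE 0.63, limma adjusted p = 0.578).

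The partners of the 10 genes were mostly out of reach. Of 40 genes of immune receptor signalling 14 were on the array and 5 were tested, of which 0 passed, with 4 higher and 1 lower in Cx43 KO and a median difference of 0.13. Of the 4 with 8 values, 3 were highest on Cx43 KO 4 (Grb2, Inpp5b and Syk), against 20.5% of named genes with 8 values. The adaptor Grb2 had 1.38 there and 0.034 to 0.48 in WT, while Bcl10 had 1.08 there and 0.65 to 1.17 in WT. Syk, named after its values were seen, had -0.45 there and -1.60 to -0.80 in WT. Of the oxidase genes only Cybc1, a chaperone of the Cybb subunit, was tested. It had 0.56 on Cx43 KO 4 and -0.73 to 0.20 in WT. Of 49 lysosome and endosome genes 16 were tested and 0 passed, 10 higher and 6 lower in Cx43 KO, with a median difference of 0.067. Their mean over the 14 with 8 values was 0.74 to 0.94 on 7 arrays and 1.12 on Cx43 KO 4. The lysosomal genes Arsb, Ctsb, Ppt1 and Tpp1 had 1.11, 1.73, 1.14 and 1.19 on Cx43 KO 4, none of them the highest value of its gene. Of the 14, 5 were highest there, Acp2 at 1.85, Atp6ap1 at 1.53, Ctsl at 1.59, Manba at 1.59 and Ctsc at 2.59, named after their values were seen, and 3 were lowest there. For all named genes with 8 values, 20.5% were highest and 22.8% lowest on Cx43 KO 4.

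**Figure D4:**
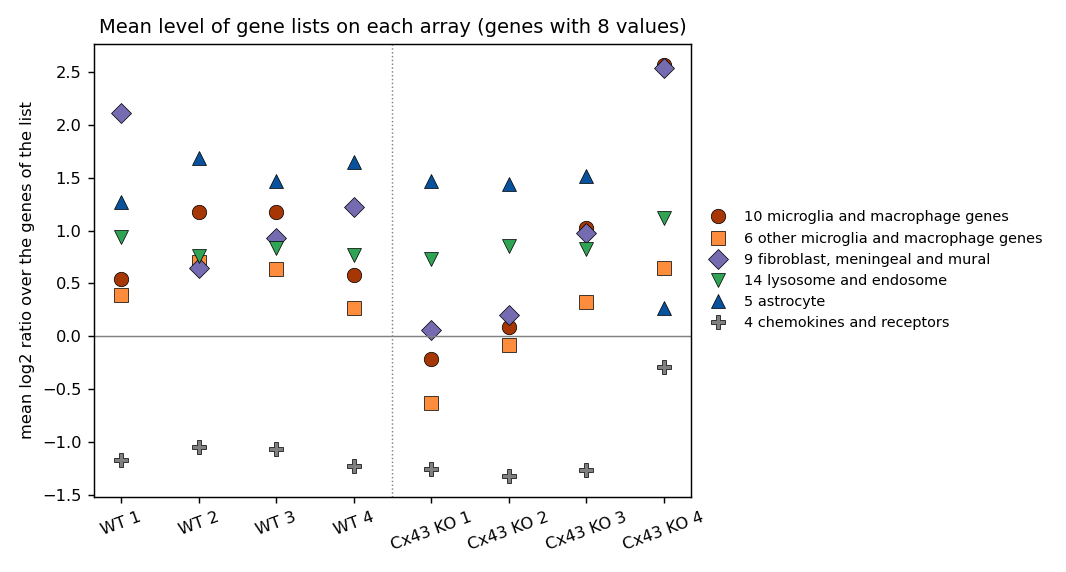
Mean log2 ratio over the genes with 8 values of each list (vertical axis) on the 8 arrays (horizontal axis, WT left and Cx43 KO right of the dotted line). On Cx43 KO 4 the 10 genes reach 2.57 and the astrocyte genes drop to 0.26, while the 6 other microglia and macrophage genes, at 0.65, stay within their WT range.

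Across the 2153 other named genes with 8 values, those most like the mean of the 10 genes differed with and without Cx43 KO 4. This is a description of 8 arrays that share the pool, and genes picked from so many as the closest have a high r by that choice. Over 8 arrays the highest r were 0.97 for the lysosomal protease Ctsc, 0.96 for the galectin Lgals9, 0.96 for Kctd12 and 0.96 for the amino acid transporter Slc7a7, followed by B4galt1 and Cdc42 at 0.95, Ccdc50 at 0.94 and Mob1a at 0.93. Ctsc, which activates serine proteases of immune cells, had levels of 0.35, 0.62, 0.84 and 0.46 in WT and of -1.28, -0.98, 0.74 and 2.59 in Cx43 KO. Its difference was -0.30 over 8 arrays (SE 0.70, limma adjusted p = 0.950) and -1.07 without Cx43 KO 4. Like Cybb, it was lowest on Cx43 KO 1 and highest on Cx43 KO 4.

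Over the 7 arrays without Cx43 KO 4, the highest r was 0.99, for the transcription factor Mef2c, followed by the amino acid transporter Slc7a8 at 0.98, Lsm6 at 0.96, Ctsc at 0.94, the myeloid transcription factor Irf8 at 0.93, and St6gal1, Gsta3 and Fam98c at 0.92. Ctsc was the only gene among the 8 closest both with and without Cx43 KO 4. Mef2c had levels of -1.09, -0.56, -0.57 and -1.14 on the WT arrays and of -2.13, -1.70, -0.74 and -1.81 on Cx43 KO 1 to 4. On Cx43 KO 4, where the mean of the 10 genes was at its highest, Mef2c was therefore at its second lowest, and its r over 8 arrays was 0.22. Irf8 had levels of 0.14, 0.60, 0.16 and -0.069 in WT and of -0.57, -0.31, 0.35 and 0.53 in Cx43 KO, with Cx43 KO 4 below WT 2, so that it resembled Tyrobp there. The lowest r over 8 arrays were -0.95 for Bloc1s1, the transcription factor Nfib, Trp53bp2 and the adhesion gene Cdh2. Nfib, a gene of the glial lineage, had levels of 1.06, 0.69, 0.73 and 1.41 in WT and of 2.02, 1.58, 0.86 and 0.15 in Cx43 KO, and its r without Cx43 KO 4 was -0.97.

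**Figure D5:**
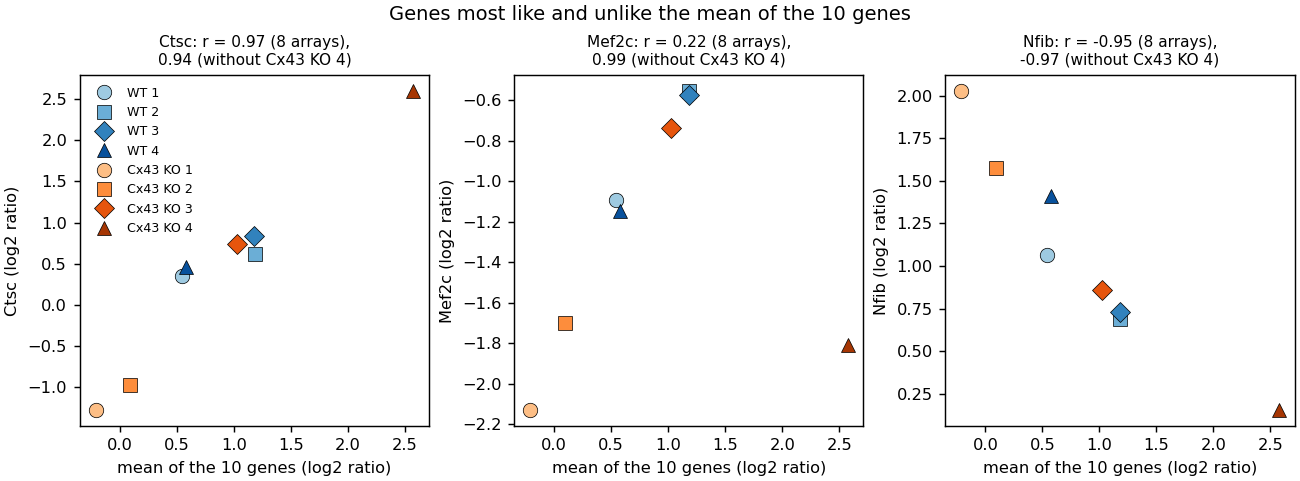
Log2 ratio of Ctsc, Mef2c and Nfib (vertical axes) against the mean log2 ratio of the 10 genes (horizontal axis), 1 point per array, with WT in blue and Cx43 KO in orange to brown. Mef2c follows the mean on 7 arrays (r = 0.99) but lies at -1.81 on Cx43 KO 4, while Ctsc follows it on all 8 (r = 0.97) and Nfib runs the other way (r = -0.95).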

How the data were processed

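The deposited values, 1 per feature and array, were read as log2 ratios of the 2 channels described per the labels. For the base, dyes, background correction and normalization that the authors used, the entry is "not given in the sources used here". Exact 0 was read as no ratio. The median ratio of an array was subtracted from all its ratios. Features with 1 symbol in the platform annotation were averaged per gene within an array. Genes with at least 3 values per genotype were tested in R 4.3.3 with limma 3.58.1 (two-sided, lmFit and eBayes, no block; statmod 1.5.0 for array weights and blocks), with Benjamini-Hochberg adjustment over 3505 genes and unnamed features and a threshold of 0.05. Correlations between members used exact permutation over all pairings.

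The members, lists, tests, alternatives and naming rule were chosen with earlier results of these data known. That rule took all members, the 8 genes closest to their mean over 8 and over 7 arrays, the 4 with the lowest r, and up to 4 genes per list with the highest mean level. One gene list is not reported here. The scripts were tested on simulated data. The labels give same-numbered arrays of both genotypes 1 lot batch, which pairs them. Deviations of the paired arrays from their group means correlated at r = -0.18, 0.19, -0.13 and -0.19 across 2596 genes and features.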

Additional observations from a re-analysis of the deposited data

Results flagged for a closer look

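Among 46 groups of 4 arrays checked for a value far from the others (the 10 genes, their mean and the means of lists with at least 3 genes, in each genotype), 2 stood out, both on Cx43 KO 4; chance flags about 1 group in 20. The mean of 5 astrocyte genes was 0.26 there, with 1.44 the nearest and 1.52 the farthest other Cx43 KO array. The mean of 4 chemokine and chemokine receptor genes was -0.29 there, with -1.26 the nearest and -1.32 the farthest. None of the 10 genes stood out in this way in either genotype, and neither did their mean.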

How the results depend on the processing

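In 18 alternatives for each gene, no member passed at an adjusted p of 0.05; the smallest adjusted p was 0.212. Cd53, Cd68, Tyrobp, Lgmn and Rac2 kept their sign in all 18. Leaving out 1 array at a time, the difference ran from -0.93 to 0.73 for Adgre1, -0.60 to 0.71 for Ccl3, -1.15 to 0.11 for Cybb, -0.67 to 0.32 for Itgam and -0.37 to 0.61 for Ptpn6. With array weights Adgre1 was at -0.95, Ccl3 at -0.45 and Ptpn6 at -0.38, and Adgre1 was at -0.41 with quantile and -0.33 with scale normalization; the cause was not tested. Over all genes and features the count that passed was 0 in every setting but without WT 2, where it was 1, and without Cx43 KO 4, where it was 4. At an unadjusted p of 0.05 or below lay 263 genes and features, 471 when arrays were weighted, and 140 to 384 without 1 array, of which 169 without WT 1, 140 without WT 3 and 174 without Cx43 KO 3. A replicate block on lot batch gave 0 passing and 196 at that unadjusted p, and it changed no call. The mean difference over the 10 genes, -0.0016, was -0.57 to 0.36 without 1 array and -0.21 to 0.069 elsewhere. The median r of the pairs, 0.83, was 0.77 to 0.92 without 1 array, without centring, with quantile normalization and with genotype means removed, but 0.60 without the 2 farthest arrays, and the median rho was 0.74. The number of arrays limits what could pass.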

Other observations

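Relatives of Cd53 differed in pattern. Of 18 other tetraspanins, the family of Cd53, 4 were tested and 0 passed with limma, and the mean of the 3 with 8 values was -0.84 to -0.39 over the 8 arrays, with -0.76 on Cx43 KO 4. Cd151, a tetraspanin that binds laminin receptors, had its lowest level on Cx43 KO 4, 0.34, while Tspan31 had its highest there, 0.17. Tspan13, with 7 values, was lowest on Cx43 KO 1, at -2.40, and Tspan8 was lowest on Cx43 KO 3, at -3.11.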
